A study of Mus musculus with 2 samples.

Results

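The E2F factors and the retinoblastoma (RB) family were examined in 4T1 cells, a murine breast cancer line described by the labels as wild type, after treatment with 20 μM astragalin (AS), a plant flavonoid, for 24 h or with the vehicle. There was 1 RNA-seq library per condition, made from a stranded mRNA preparation. The members were taken by symbol from the deposited table, and 10 of 10 were found among its 14197 genes, namely 7 E2F genes (E2f1, E2f2, E2f3, E2f4, E2f5, E2f7 and E2f8) and 3 RB genes (Rb1, Rbl1 and Rbl2). With 1 library per condition there was no replicate and no test, and an effect of AS and a difference between the 2 dishes cannot be told apart. All members were measurable, from 251 reads for E2f2 to 3845 reads for E2f4 in the AS library and from 332 reads for E2f2 to 4588 reads for E2f8 in the vehicle library.

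E2F proteins bind DNA at the promoters of genes that cells need to enter and pass S phase. E2f1, E2f2 and E2f3 encode activators, E2f4 and E2f5 encode repressors that act with pocket proteins, and E2f7 and E2f8 encode atypical repressors that bind DNA without a DP partner and are made late in G1 and in S phase. Rb1, Rbl1 and Rbl2 encode the pocket proteins pRB, p107 and p130, which hold E2F proteins until cyclin-dependent kinases phosphorylate them. E2f1, E2f7, E2f8 and Rbl1 are themselves known targets of E2F.

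The library sizes behind the values were 44909683 reads under AS against 50820729 under vehicle. The deposited unit, RPKM, divides the reads of a gene by its exon length and by the size of the library, so levels of different genes can be set side by side. Whole reads were found behind the RPKM of 12718 genes, the 10 members included, and give the 95% Clopper-Pearson intervals printed here, which cover counting error only. All 9 epithelial markers were present, with a summed RPKM of 1855 under AS against 2359 under vehicle, and Epcam stood at 334.7 and 356.6 RPKM. The markers did not all go the same way. Cdh1 (95.5 and 84.6 RPKM) and Cldn4 (45.83 and 34.15 RPKM) were higher with AS. The others were lower, Cldn3 only slightly (31.7 and 32.0 RPKM). Of the other cell types, 0 of 3 endothelial markers, 2 of 4 fibroblast markers and 2 of 5 leukocyte markers were in the table. The leukocyte markers summed to 24.1 RPKM under AS against 28.3 under vehicle, nearly all of it Cd68, and Ptprc, the pan-leukocyte gene, was at 0.116 RPKM under AS against 0.114 under vehicle.

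Promoter sequences are shown because several of these genes are known to be controlled by E2F itself. RefSeq windows on GRCm38.p6, from 250 bases before to 50 bases after a start site, were at hand for 7 members (E2f1, E2f2, E2f3, E2f7, E2f8, Rbl1 and Rbl2). They were searched on both strands for an E2F site in any of the spellings TTTCCCGC, TTTCGCGC, TTTGCCGC and TTTGGCGC, for the cell cycle homology element (CHR) spelled TTTGAA, and for the box CCAAT. No spelling of one element overlapped that of another in the windows printed here. The 250 bases before the start of E2f7, E2f8, Rbl1 and E2f3 follow. The first 3 are genes that were lower with AS, and E2f3 is an activator that was not. Capitals mark the matches on either strand.
E2f7, chr10:110745189-110745438, plus strand: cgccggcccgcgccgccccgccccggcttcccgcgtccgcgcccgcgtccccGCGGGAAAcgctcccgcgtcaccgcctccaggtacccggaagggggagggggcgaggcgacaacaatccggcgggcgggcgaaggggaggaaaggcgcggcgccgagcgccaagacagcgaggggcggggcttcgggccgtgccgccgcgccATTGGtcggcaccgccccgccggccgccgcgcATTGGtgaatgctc
E2f8, chr7:48881597-48881846, minus strand: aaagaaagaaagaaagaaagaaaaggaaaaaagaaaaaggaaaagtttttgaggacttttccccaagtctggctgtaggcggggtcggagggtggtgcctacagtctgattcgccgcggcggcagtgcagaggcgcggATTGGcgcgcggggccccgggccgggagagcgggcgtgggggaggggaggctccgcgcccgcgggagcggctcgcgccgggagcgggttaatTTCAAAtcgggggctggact
Rbl1, chr2:157204535-157204784, minus strand: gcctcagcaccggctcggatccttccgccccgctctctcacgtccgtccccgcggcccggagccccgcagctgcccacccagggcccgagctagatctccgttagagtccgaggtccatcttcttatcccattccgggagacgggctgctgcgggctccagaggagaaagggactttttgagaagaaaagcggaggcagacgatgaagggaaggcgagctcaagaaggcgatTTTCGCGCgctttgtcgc
E2f3, chr13:29986064-29986313, minus strand: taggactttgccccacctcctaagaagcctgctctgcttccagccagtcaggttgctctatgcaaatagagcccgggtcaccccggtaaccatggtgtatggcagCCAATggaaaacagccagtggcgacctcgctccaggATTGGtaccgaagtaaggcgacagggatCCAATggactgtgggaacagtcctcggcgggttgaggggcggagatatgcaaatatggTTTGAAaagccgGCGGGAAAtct

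The E2F letters lay 198 bases before the start of E2f7, 18 before that of Rbl1 and 11 before that of E2f3, each counted to the first base of the match as read along the gene. The window of E2f8 held no E2F letters in these spellings and had a CHR 20 bases before the start and a CCAAT box 112 bases before it. E2f2 had E2F letters from base 40 of its RefSeq transcript, in the stretch ggcatatagTTTGGCGCtaa, with the match in capitals, and a CCAAT box 13 bases before the start. The window of Rbl2 held a CHR alone, 201 bases before the start. The start site of the single E2f1 window lay 466 bases inside the gene as GENCODE M21 draws it, and all 250 bases before that site were annotated exon, so the window is not shown. Of the windows of genes in the deposited table, 4.0% held the E2F letters, 12.3% the CHR and 37.8% the CCAAT box. E2f3 and E2f2 each had a second window at a start inside the gene, and neither held the E2F letters.

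The activators differed in direction. E2f1, the founding member of the family, is found on chromosome 2 (GRCm38) from 154559407 to 154569892 on the minus strand and had an RPKM of 2.85 under AS against 4.22 under vehicle, from 404 and 676 reads. It was 32.4% lower with AS, with a log2 ratio of the reads of -0.56 and an interval from -0.75 to -0.38. This was the largest difference of the 10 members, and 2.5% of all genes had a lower fold change. The interval of E2f1 contains those of E2f7 (-0.65 to -0.40) and E2f8 (-0.535 to -0.40), so these genes cannot be ranked by it. E2f3, on chromosome 13 from 29906575 to 29986063, had an RPKM of 4.83 under AS against 4.29 under vehicle and was 12.6% higher, with a log2 ratio of 0.17 and an interval from 0.05 to 0.29. This interval holds the median of all genes (0.066), and 66.4% of all genes had a lower fold change than E2f3. E2f2, on chromosome 4 from 136172394 to 136196057, had the lowest level of the members in both libraries, at 1.145 RPKM under AS against 1.34 under vehicle. Its log2 ratio was -0.225 (251 against 332 reads), and the interval from -0.47 to 0.02 holds 0. E2f1 and E2f3 stood at about the same level with the vehicle, with a ratio of E2f1 to E2f3 of 0.983, and that ratio was 0.590 with AS. This within-library ratio does not depend on the scaling between the libraries.

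The atypical repressors were both lower with AS, by like amounts. E2f8, on chromosome 7 from 48866429 to 48881596, had an RPKM of 12.0 under AS against 16.6 under vehicle, from 2932 and 4588 reads. It was 27.7% lower, with a log2 ratio of -0.47 and an interval from -0.54 to -0.40. E2f7, on chromosome 10 from 110745439 to 110787384, had an RPKM of 2.13 under AS against 3.06 under vehicle, from 862 and 1403 reads. It was 30.5% lower, with a log2 ratio of -0.52 and an interval from -0.65 to -0.40. Both genes lay among the lowest 5% of fold changes, with 3.0% of all genes below E2f7 and 3.7% below E2f8. E2f8 was the more abundant of the pair in both libraries, at 5.63 times the RPKM of E2f7 with AS and 5.41 times with the vehicle.

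**Figure D1:**
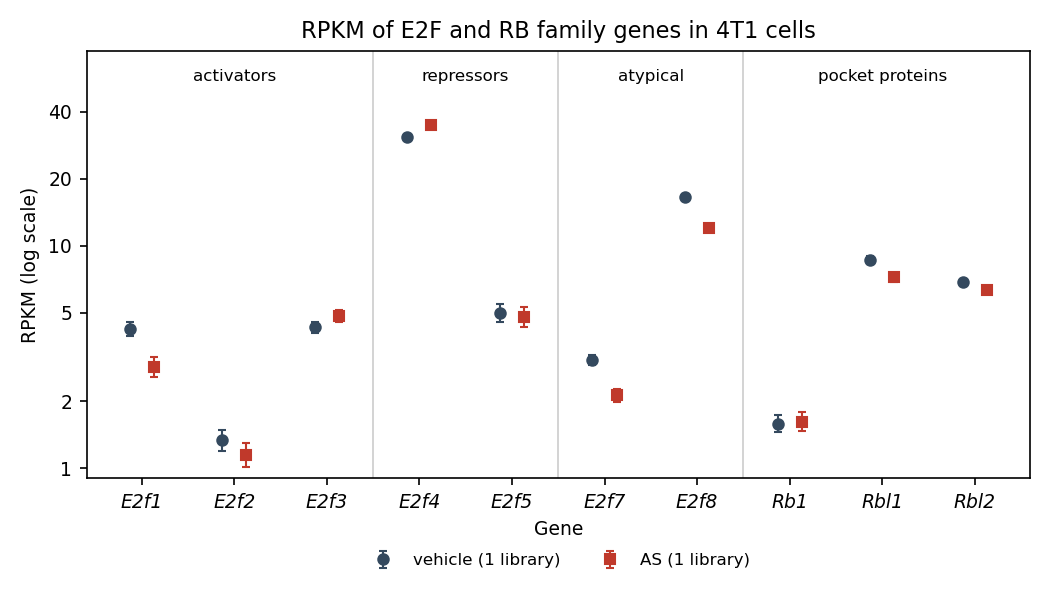
RPKM of the 10 genes (log axis) in the vehicle library (circles) and the AS library (squares), with 95% Poisson intervals of the reads as bars. E2f4 is the highest gene in both libraries. The bars do not overlap for E2f1, E2f7, E2f8 and Rbl1, which lie lower with AS, or for E2f3 and E2f4, which lie higher.

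The repressors that act with pocket proteins were not lower beyond counting error. E2f4, on chromosome 8 from 105297663 to 105305370, had the highest level of the members, with an RPKM of 34.9 under AS against 30.7 under vehicle from 3845 and 3826 reads. It was 13.7% higher with AS, with a log2 ratio of 0.19 and an interval from 0.12 to 0.25, and 68.9% of all genes had a lower fold change. E2f5, on chromosome 3 from 14578641 to 14606309, had an RPKM of 4.79 under AS against 5.002 under vehicle, and its log2 ratio of -0.06 has an interval from -0.26 to 0.14.

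Among the pocket proteins Rbl1 and Rbl2 were lower, and Rb1 differed by less than its counting error. Rbl1, which encodes p107, lies on chromosome 2 from 157145893 to 157204534, 2.58 Mb from E2f1, and had an RPKM of 7.19 under AS against 8.60 under vehicle, from 1935 and 2619 reads. It was 16.4% lower, with a log2 ratio of -0.26 and an interval from -0.34 to -0.17. Rbl2, which encodes p130, lies on chromosome 8 from 91070057 to 91123844 and had an RPKM of 6.33 under AS against 6.83 under vehicle, and its log2 ratio of -0.11 has an interval from -0.19 to -0.03. Rb1, on chromosome 14 from 73183673 to 73325822, had an RPKM of 1.62 under AS against 1.59 under vehicle, from 438 and 485 reads. Its log2 ratio was 0.03 with an interval from -0.16 to 0.22, and its sign turned when the median of all genes was set to 0 (-0.04 on the log2 scale). Rb1 was the rarest pocket protein transcript, and Rbl1 stood at 4.43 times its RPKM with AS and 5.42 times with the vehicle.

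**Figure D2:**
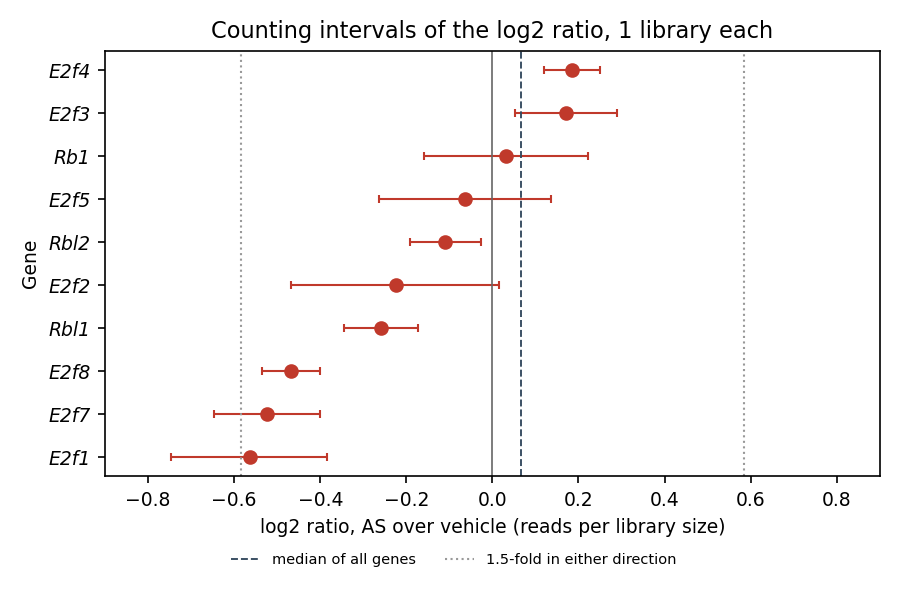
Log2 ratio of AS over vehicle from the reads of each gene (points) with its 95% Clopper-Pearson interval (bars), the median of all genes (dashed, 0.07) and the study's lower fold threshold, 1.5-fold, in both directions (dotted). E2f1, E2f7, E2f8, Rbl1 and Rbl2 lie wholly below 0, and E2f3 and E2f4 wholly above.

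Against the fold thresholds of the study's methods, no member passed with the values as deposited, but E2f1 and E2f7 passed the lower one under other settings. The study paired the lower threshold with a limit on the p-value and the higher with one on the FDR. Only the fold part was used here. Fold changes were taken as log2 ratios after 0.1 RPKM was added to both values. At a log2 fold change of 1, 0 of 10 members were lower or higher, where 0.31% of all genes were lower and 0.662% higher by as much. At 1.5-fold, the lower of the thresholds, 0 of 10 were lower or higher, where 2.01% of all genes were lower and 3.56% higher, and E2f1 came nearest at -0.55. With the median of all genes set to 0, upper-quartile or TMM scaling E2f1 was at -0.614, -0.603 and -0.616 on the log2 scale, so 1 member was lower by 1.5-fold. With the median of genes of similar RPKM subtracted 2 members were, E2f1 at -0.645 and E2f7 at -0.617. The counting interval lay wholly below 0 for 5 of 10 members, where it did so for 20% of the 12718 genes with reads, and wholly above 0 for 2 of 10, where it did so for 38.2%. The median log2 fold change was -0.16 over the members and 0.07 over all genes, and 8 of 10 members lay under the median of all genes. The exceptions were E2f3 and E2f4. TMM scaling lowered every log2 fold change by 0.07, and Rb1 was the one member whose sign it changed.

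The order of levels was nearly the same in both libraries. From the top it was E2f4, E2f8, Rbl1 and Rbl2 in both, with intervals of the RPKM that did not overlap between neighbours. E2f1 and E2f3 could not be told apart with the vehicle, at 4.22 RPKM with an interval from 3.905 to 4.55 and 4.29 RPKM with an interval from 4.05 to 4.54. With AS it was E2f3 and E2f5 whose intervals overlapped, at 4.83 RPKM (4.56 to 5.12) and 4.79 RPKM (4.32 to 5.29). Below them E2f1, E2f7, Rb1 and E2f2 followed in this order in both libraries, and Rb1 and E2f2 overlapped with the vehicle.

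The make-up of the E2F transcripts within each library was set out as shares of the summed E2F RPKM, which was 62.7 under AS against 65.2 under vehicle. E2f4 made up 55.7% of the sum under AS against 47.1% under vehicle, and E2f8 made up 19.1% and 25.4%. The atypical repressors together held 22.5% under AS against 30.1% under vehicle. The activators held 14.1% and 15.1%, a small difference that turned to 18.6% and 17.6% when reads were used in place of RPKM. Within the RB family Rbl1 held 47.5% of the RPKM under AS against 50.5% under vehicle, Rbl2 41.8% and 40.1%, and Rb1 10.7% and 9.3%.

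**Figure D3:**
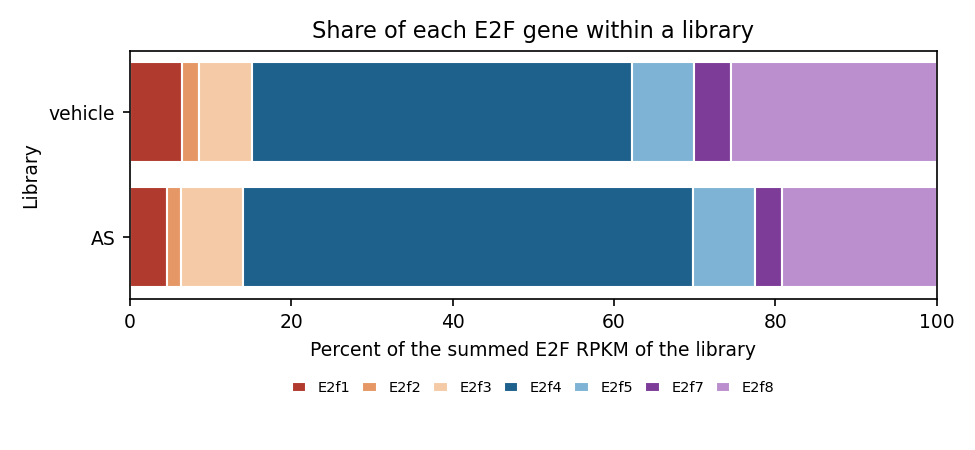
Percent of the summed E2F RPKM of each library held by each of the 7 genes (stacked bars from 0 to 100). The E2f4 segment is wider with AS (55.7% against 47.1%) and the E2f8 segment narrower (19.1% against 25.4%).

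The genes around the family were taken from 8 lists, some of which share genes. The list of G1/S targets of E2F holds genes of replication licensing, DNA synthesis and nucleotide supply, and all 60 of its 60 genes were in the table. Every one of the 60 had a lower RPKM with AS, with log2 fold changes from -1.14 to -0.02 and a median of -0.395, and the counting interval lay wholly below 0 for 56 of the 59 with reads. Over all genes, 39.1% had a log2 fold change below 0 and 20% of those with reads had an interval wholly below 0. At 1.5-fold, 14 of 60 were lower and 0 higher, where 2.01% and 3.56% of all genes were. The list was chosen with results on replication genes of these libraries known, so these counts are a description. In bulk RNA, fewer cells in S phase and less RNA per cell cannot be told apart. Cdc6, the licensing factor, was the one gene past 1, at 1.75 RPKM under AS against 3.98 under vehicle. Of the rest, Ung and Rrm2 were chosen after their values were seen. Ung, a uracil glycosylase gene, stood at 0.867 and 1.72 RPKM, with a log2 fold change of -0.915. Rrm2, a ribonucleotide reductase subunit gene, stood at 9.32 and 16.3 RPKM, with a log2 fold change of -0.80. The fold changes of E2f1, E2f7 and E2f8 (-0.548, -0.505 and -0.464) lie within the range of these targets and below their median. That of Rbl1 (-0.255) lies within the range and above the median. So do those of E2f2, E2f5 and Rbl2 (-0.208, -0.062 and -0.107), so the range does not set the known E2F targets apart from other members.

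The promoter letters were set against this list in the same windows. Of 55 windows of 48 G1/S target genes, 38.2% held the E2F letters, and 60.0% held a CCAAT box. The 21 genes with the E2F letters had a median log2 fold change of -0.33 and the 27 without them one of -0.42. All of both sets were lower with AS, which follows from every gene of the list being lower. Over all genes with a window, the median was 0.03 for 475 genes with the E2F letters and 0.08 for 9205 without. Of those with the letters 46.7% were below 0, against 37.2% of those without, a difference that was not tested. The G2/M list, genes that the DREAM complex of p107, p130, E2F4 and MuvB represses and that B-MYB and FOXM1 activate, held the CHR letters in 72.7% of its 33 windows and the E2F letters in 3.0%. Its 37 genes had a median log2 fold change of -0.16, from -0.495 to 0.13, with 31 below 0, where 39.1% of all genes were. At 1.5-fold 0 were lower or higher, where 2.01% and 3.56% of all genes were. The counting interval was wholly below 0 for 28 of 36 and wholly above for 2, where it was so for 20% and 38.2% of all genes with reads.

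**Figure D4:**
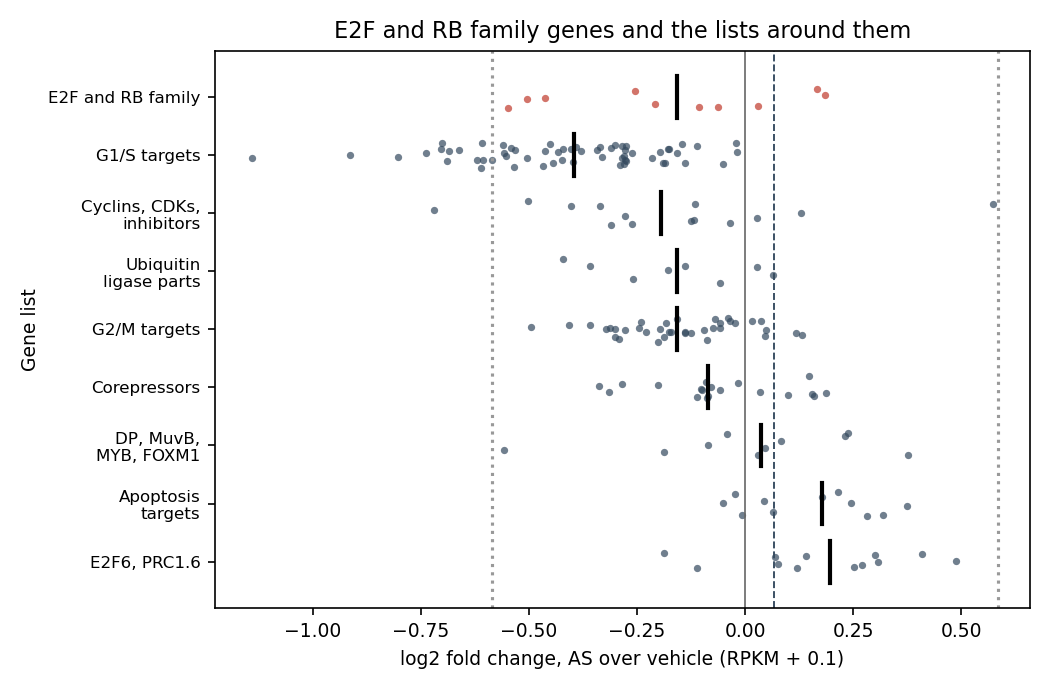
Log2 fold change of AS over vehicle (RPKM + 0.1) of each gene (points, spread vertically for view) in the E2F and RB family and in 8 lists, with list medians (black bars), the median of all genes (dashed) and 1.5-fold in both directions (dotted). All 60 G1/S targets lie below 0, and the medians run from -0.395 for that list to 0.20 for the E2F6 list.

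The partners of E2F and pocket proteins, 10 of 10 in the table, had a median log2 fold change of 0.04, which turned to -0.03 with TMM scaling. None of them was past 1.5-fold, where 2.01% of all genes were lower and 3.56% higher by as much. Mybl2, which encodes B-MYB and is itself a target of E2F, was chosen after its values were seen and stood at 11.05 RPKM under AS against 16.3 under vehicle, which gives a log2 fold change of -0.56. The DP partner genes, chosen likewise, went apart, with Tfdp1 at 25.8 and 29.4 RPKM (-0.19) and Tfdp2 at 2.27 and 1.72 RPKM (0.38). Of the cyclins, kinases and inhibitors that control RB, 14 of 17 were in the table, with a median of -0.195. At 1.5-fold 1 was lower and 0 higher, where 2.01% and 3.56% of all genes were. The lower one was Cdkn2d, which encodes the CDK4 and CDK6 inhibitor p19INK4d, at 4.75 RPKM under AS against 7.90 under vehicle and a log2 fold change of -0.72. Cdkn2a, Cdkn2b and Cdkn1c were not in the table. Ccne1, Ccne2, Ccna2 and Cdc25a of this list are also among the G1/S targets. Chosen after their values were seen, the D-type cyclin genes also went apart, with Ccnd1 at 53.1 and 70.2 RPKM (-0.40), Ccnd2 at 4.42 and 2.94 RPKM (0.57), and Ccnd3 at 1.21 and 1.33 RPKM (-0.13, with an interval of the reads that holds 0). Cdk2, chosen likewise, stood at 6.46 and 9.20 RPKM (-0.50).

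The other lists held no gene past 1.5-fold in either direction. Of all genes, 2.01% were lower and 3.56% higher by as much, so lists this short would hold few such genes. The list of ubiquitin ligase parts and regulators around E2F and RB control, 8 of 9 in the table, had a median log2 fold change of -0.16. Of the 8, 6 were below 0, where 39.1% of all genes were, and 2 were above. All 8 lay under the median of all genes, but Cul1 only just (0.065 against 0.066), with an interval of the reads from 0.009 to 0.122. Ccnf and Cdc20 are also in the G2/M list, and Fbxo5 is also in that of the G1/S targets. The chromatin corepressors that pocket proteins bind, 19 of 19, had a median of -0.09, with values from -0.34 to 0.19. The list of E2F6 and its Polycomb partners, 12 of 12, had a median of 0.20, and 10 of its genes were above 0, as were 60.9% of all genes. E2f6, a repressor of the family without a pocket-binding part, was not among the members and was chosen after its values were seen. It stood at 3.62 RPKM under AS against 2.70 under vehicle, which gives a log2 fold change of 0.41 with an interval of the reads from 0.28 to 0.56. The apoptosis targets of E2F1, 11 of 15 in the table, had a median of 0.18, with values from -0.05 to 0.38. Of these, 3 of 11 were below 0, where 39.1% of all genes were, and 5 of 11 lay under the median of all genes. The median of the list was 0.078 when that of genes of similar RPKM was subtracted. Casp8ap2 is in this list and in that of the G1/S targets.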

How the data were processed

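RNA of 4T1 cells was sequenced as 1 library for AS and 1 for the vehicle. The members and the 8 lists were chosen with earlier results of these data known. The authors deposited 1 table of gene symbols with the RPKM of each library, whose unit was found from the values. It also holds, as the authors deposited them, a log2 fold change, mean log2 CPM, p-value and FDR, which were not used. The submitters' processing notes name fastp 0.23.4, STAR 2.5.3a, featureCounts and GRCh38. GRCh38 is a human build, whereas the symbols are those of mouse, and 94.2% of the 13502 genes with a single GENCODE M21 (GRCm38) entry gave whole reads in both libraries (within 0.02 reads) when RPKM was multiplied by the exon length there, so positions are from GENCODE M21. The filter that left these genes is not given in the sources used here. Genes whose length did not match have no interval.

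Fold changes are log2 ratios after addition of 0.1 RPKM to each value, so that changes of low genes come out too small. No test and no p-value was computed. The 95% Clopper-Pearson intervals use the recovered reads and the library sizes. They cover counting error only. No molecular identifiers are named, so copies of the same molecule may be counted as separate reads, and the intervals may then be too narrow. The recovery of reads was tested on simulated data. Alternatives were 0 or 1 RPKM added, median, upper-quartile and TMM scaling, subtraction of the median of genes of similar RPKM (20 bins), a minimum mean of 1 RPKM, and reads with 0.5 added. From the lists, genes past 1, or else up to 3 per direction past 1.5-fold with a mean of at least 1 RPKM, were to be named, and other genes are said to be chosen after their values were seen. Scripts ran in Python 3.11.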

Additional observations from a re-analysis of the deposited data

How the results depend on the processing

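No paired analysis was possible because each condition has 1 library, which also leaves the error between dishes unmeasured. The signs of 9 members held under every alternative, and that of Rb1 (0.03) turned to between -0.025 and -0.083 under the 3 scalings and the correction for expression. Shifts of other log2 fold changes were larger than the half-width of the counting interval only for E2f4 (0.119 with the median of all genes set to 0, 0.117 with TMM), E2f7 (-0.377 with 1 RPKM added) and E2f8 (-0.532 with TMM). The count of members lower by 1.5-fold was 0 and became 1 with median, upper-quartile or TMM scaling and 2 with the median of genes of similar RPKM subtracted. For the partners list it was 0 and became 1 under these 4 settings. Of the cyclin list 1 gene was higher by 1.5-fold with 0 RPKM added. Of the G1/S targets, 0 were lower by 1 with 1 RPKM added and 2 with the expression correction, and 9 were lower by 1.5-fold with 1 RPKM added. The median of the G2/M list was -0.224, -0.212 and -0.225 with median, upper-quartile and TMM scaling, that of the corepressors -0.152, -0.141 and -0.154, and that of the apoptosis targets 0.078 with the expression correction. Shares by reads in place of RPKM, with AS and the vehicle, were 38.5% and 48.1% for the atypical repressors, 18.6% and 17.6% for the activators, 42.9% and 34.3% for E2f4 with E2f5, and 42.8% and 45.7% for Rbl1 in its family. These shares weigh long transcripts more. The other settings moved each value by less than the half-width of its counting interval or left each count within 1.5 times.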
